A study of Mus musculus with 6 samples.

Results

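This report describes the 10 apolipoprotein genes Apoa1, Apoa2, Apoa4, Apoa5, Apob, Apoc1, Apoc2, Apoc3, Apoc4 and Apoe in whole liver of 12-day-old C57BL/6 mice. They were taken by gene symbol from a table of 54532 genes, and all 10 had 1 row each. The series comprised 3 livers of Tbx21flox/flox Foxp3GFP-CreRosa26loxP-Stop-loxP-YFP mice and 3 livers of Foxp3GFP-CreRosa26loxP-Stop-loxP-YFP mice. Every animal thus carried a Cre driven by Foxp3, a gene of regulatory T cells, and the YFP reporter, and the groups differed in the floxed Tbx21 allele. RNA sequencing values were given as FPKM (fragments per kilobase of gene length and scaled to the depth of the library), in 6 columns that carried running numbers. These numbers match no name of a sample, so a column has no known genotype. The columns are written as liver 1 to liver 6, after their own numbers. That they are the livers of this series is a reading of the table, which holds as many value columns as the series has samples, and the labels do not settle it. Each spread below is therefore a spread over 6 livers of mixed and unknown genotype, and no contrast was made. Nothing states whether any of them came from the same litter, sex or feeding state.

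Apolipoproteins are the protein part of lipoproteins, the particles that carry triglyceride and cholesterol in blood. Apob forms the scaffold of very low density lipoprotein and chylomicrons and stays with the particle, whereas the smaller members exchange between particles, activate or inhibit lipases, or serve as ligands of receptors. The liver secretes most of them, and the suckling period is a time of high fat intake from milk, when the liver takes up, burns and exports large amounts of lipid.

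Most of the genes lie in a pair of clusters (mm10, coordinates as deposited). The cluster on chromosome 9 holds 4 of them within 43.3 kb: Apoa1 (chr9:46228580-46230466, plus strand), Apoc3 (chr9:46232933-46235636, minus strand), Apoa4 (chr9:46240696-46243459, plus strand) and Apoa5 (chr9:46268633-46271919, plus strand). The cluster on chromosome 7 holds another 4 within 27.6 kb, all on the minus strand: Apoc2 (chr7:19671579-19677941), Apoc4 (chr7:19678083-19681479), Apoc1 (chr7:19689481-19692660) and Apoe (chr7:19696109-19699188). Apoa2 (chr1:171225054-171226379) and Apob (chr12:7977648-8016835) stand alone, both on the plus strand.

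The sequences just upstream of 3 genes of the chromosome 9 cluster are shown because these neighbours had unlike levels. Over the 6 livers Apoa4 and Apoa5 were both highest in liver 3, whereas Apoa1 was highest in liver 1. Any tie of the sequences to levels or patterns was not tested. They are from the RefSeq annotation of GRCm38.p6 (the assembly known as mm10), run 5′ to 3′ on the plus strand, and stop short of the first exon annotated in GENCODE M21. Capitals mark matches, on either strand, to any of 5 motifs searched: TATAAA (the TATA box), AGGTCA and AGTTCA (half-sites of nuclear receptors), CAAAGTCCA (a site form of HNF4A) and CCAAT.
Apoa1, 200 bases, chr9:46228380-46228579: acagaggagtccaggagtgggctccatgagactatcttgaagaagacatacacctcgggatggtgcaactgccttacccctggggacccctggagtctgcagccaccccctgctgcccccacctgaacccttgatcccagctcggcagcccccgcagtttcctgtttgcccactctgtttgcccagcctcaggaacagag
Apoa4, 102 bases, chr9:46240594-46240695: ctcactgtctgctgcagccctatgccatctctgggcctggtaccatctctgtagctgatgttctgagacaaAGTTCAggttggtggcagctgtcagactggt
Apoa5, 250 bases, chr9:46268358-46268607: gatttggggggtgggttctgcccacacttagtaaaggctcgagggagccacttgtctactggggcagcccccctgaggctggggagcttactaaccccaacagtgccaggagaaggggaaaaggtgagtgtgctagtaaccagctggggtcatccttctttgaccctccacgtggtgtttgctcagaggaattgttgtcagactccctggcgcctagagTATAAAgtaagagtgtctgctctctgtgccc

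In these stretches the Apoa5 sequence held TATAAA, the Apoa4 sequence held AGTTCA, and the Apoa1 sequence held none of the 5 motifs. Within the full 250 bases before its RefSeq start, 50 of which lie past the printed stretch, Apoa1 also held AGTTCA. Over the 250 bases upstream of all 32851 start sites in the RefSeq table, 12.4% held TATAAA and 11.8% held AGTTCA. CAAAGTCCA occurred in 0.384% of them and in no member with a sequence, of which there were 8. These are matches of letters, not measured binding.

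Depth was similar in all livers. Each value multiplied by the listed gene length was a whole multiple, within 0.01, of 1 step per liver, which gave 14859569 to 18796842 reads assigned to genes. Liver 3 and liver 1 stood apart from the rest. Over the 11082 genes with a median FPKM of at least 1, the median Spearman correlation of log2(FPKM + 1) with the other livers, across genes, was 0.954 for liver 3 and 0.960 for liver 1, against 0.970 to 0.977 for the remaining 4. A row of 57 bases annotated as a miRNA gene, Gm23935, took 22.2% of the summed FPKM in liver 1 and 5.04% to 12.7% in the others. The hepatocyte markers Alb (47784 to 52841 FPKM), Ahsg and Ttr were among the highest genes of the table, in keeping with liver tissue, beside the mitochondrial mt-Co1. Results that rest on liver 3 or liver 1 are given with and without that liver.

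Apolipoprotein transcripts were among the most abundant in the 12-day liver. Of the 20 genes with the highest median FPKM, 4 were members, and 6 members were among the highest 100. The 10 genes together summed to 26796 FPKM in the lowest liver, 28215 at the median and 38679 in the highest, liver 1. This was 6.14% to 7.11% of all FPKM, with a median of 6.59%, and as such a share liver 2 was highest and liver 1 followed with 7.01%. Once genes listed under 200 bases were left out, the share was 7.09% to 9.11%, with liver 1 highest. The 4 highest members, Apoa1, Apoe, Apoa2 and Apoc1, made up 95.6% of the sum of the 10 medians.

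**Figure D1:**
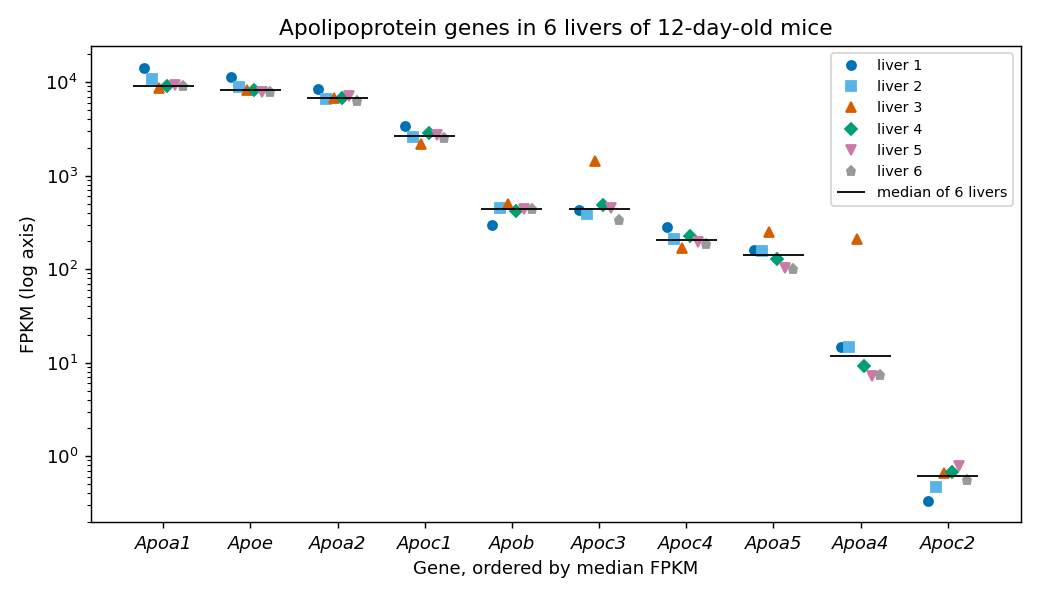
FPKM (log axis) of each of the 10 genes in each of 6 livers, 1 symbol per liver, with the median of the 6 livers as a line. Levels run from 14324 FPKM for Apoa1 in liver 1 to 0.335 FPKM for Apoc2 in the same liver, and liver 3 lies far above the others for Apoa4 and Apoc3.

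Apoa1, the main structural protein of high density lipoprotein and an activator of the cholesterol-esterifying enzyme LCAT, was the highest member by listed gene length and had rank 5 among all genes. Its levels were 14324, 10742, 8575, 9097, 9239 and 9024 FPKM in liver 1 to liver 6. Liver 1 was highest and liver 3 lowest, a ratio of 1.67, and without liver 1 the ratio was 1.25.

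Apoa2, the second protein of high density lipoprotein, had the narrowest spread of the 10. It stood at 8363, 6570, 6698, 6783, 7099 and 6235 FPKM, with liver 1 highest and liver 6 lowest, a ratio of 1.34. Without liver 1, the remaining 5 values lay within 1.14-fold. For each 100 FPKM of Apoa1 there were 58.4 to 78.1 FPKM of Apoa2 in the same liver, with liver 1 lowest and liver 3 highest in this ratio.

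Apoe, the ligand through which remnant particles are taken up by receptors on liver cells, is made by hepatocytes and also by macrophages. It measured 11376, 8816, 8173, 8223, 7887 and 7933 FPKM. Liver 1 was again highest, 1.44-fold above liver 5, and the other 5 values lay within 1.12-fold. Markers of Kupffer cells and macrophages (8 genes, all detected) summed to between 231 FPKM in liver 5 and 669 FPKM in liver 3. Liver 3, with the highest macrophage marker sum, had an Apoe level between those of livers 6 and 4, and the part of these cells in Apoe was not tested. In whole liver, more cells of a type and more RNA per cell cannot be told apart.

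Apoc1, a small exchangeable protein that slows lipolysis and remnant uptake, followed, with 3430, 2616, 2172, 2862, 2708 and 2533 FPKM. Liver 1 was highest and liver 3 lowest, a ratio of 1.58, which was 1.32 without liver 1 and 1.35 without liver 3. Apoc4, the member of the C group with the least settled function, stood at 281, 212, 167, 229, 197 and 186 FPKM, with the same livers at both ends. Its ratio of 1.68 was 1.37 without liver 1 and 1.51 without liver 3. The pair kept a narrow proportion within livers, at 7.28 to 8.18 FPKM of Apoc4 per 100 FPKM of Apoc1. Both lie downstream of Apoe on the same strand, where Apoc1 amounted to 26.6 to 34.8 FPKM per 100 FPKM of Apoe, lowest in liver 3.

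Apob, whose single copy on each particle makes it the count of secreted very low density lipoprotein, is by far the longest member with 13934 bases of exons. It measured 298, 456, 499, 418, 442 and 443 FPKM. Here the order of the livers was turned around, with liver 1 lowest and liver 3 highest, a ratio of 1.67. Without liver 1 the ratio was 1.19. Mttp, which loads lipid onto the Apob protein, ranged from 37.5 to 43.7 FPKM, and Apobec1, which edits the Apob transcript to the short intestinal form and in mice is also active in liver, from 6.12 to 7.95 FPKM.

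The level of liver 1 against the other livers varied with gene length. Protein-coding genes with a median of at least 10 FPKM were put in 5 length classes. The median log2 ratio of liver 1 to the median of the other 5 was 0.32 in the shortest class (297 to 1701 bases). It was 0.19 in the class that holds Apoe (1702 to 2533 bases) and 0.09 in that of Apoc4 (2534 to 3442 bases). In the longest class (4967 to 23738 bases) it was -0.14. In every other liver, all 5 class medians lay between -0.14 and 0.10. The corresponding log2 ratio was -0.57 for Apob, and 0.65 for Apoa1, 0.48 for Apoe, 0.51 for Apoc4, 0.39 for Apoc1 and 0.32 for Apoa2, so each of these lay beyond the median of its length class or at it. Apoc3, with 1014 bases, was an exception at -0.06. The part of length in these values was not tested. Rescaling the columns to equal FPKM sums lowers liver 1 because of its high FPKM sum. Of that sum, 22.2% was the 57-base row Gm23935, against 5.04% to 12.7% in the others. On this scale the highest liver became liver 2 for Apoe, liver 5 for Apoa2, and liver 4 for Apoc1 and Apoc4. Apoa1 was still highest in liver 1 and Apob still lowest there. No rescaling without the row Gm23935 was made. With genes listed under 200 bases left out, the members' share of FPKM was highest in liver 1, at 9.11%.

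**Figure D2:**
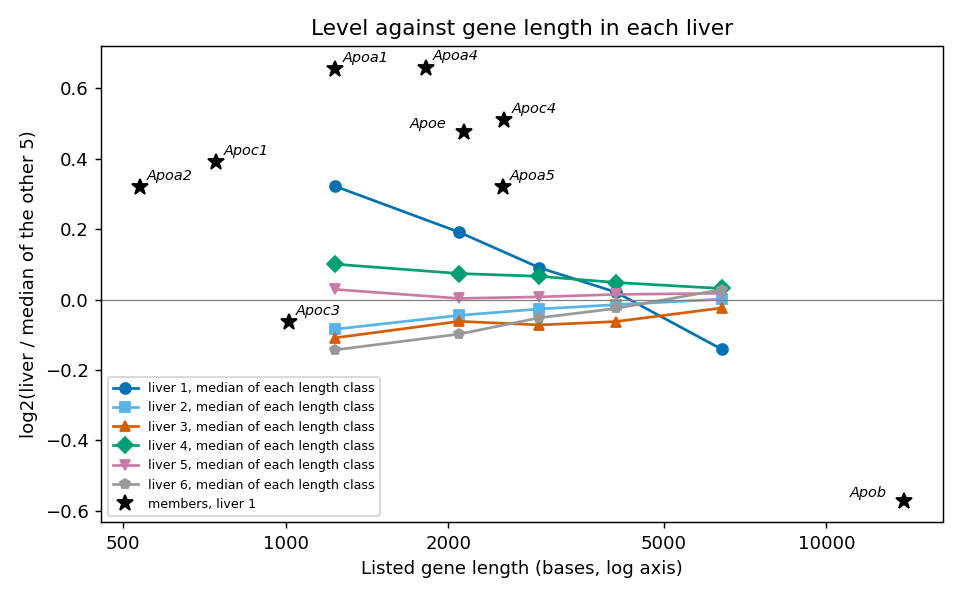
For each liver, the median log2 ratio of its FPKM to the median of the other 5 livers, in 5 classes of listed gene length (lines, protein-coding genes of at least 10 FPKM), with the same ratio of liver 1 for the 9 members above that level (stars). The line of liver 1 runs from 0.32 to -0.14, and Apob, the longest member, lies at -0.57.

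For the genes of the chromosome 9 cluster other than Apoa1, liver 3 was the highest. Apoc3, an inhibitor of lipoprotein lipase and of remnant clearance, measured 432, 386, 1452, 482, 451 and 336 FPKM. Liver 3 was 3.01-fold above the next highest liver, and the ratio of highest to lowest was 4.32 with it and 1.43 without it. Apoa5, which aids lipolysis by lipoprotein lipase at the vessel wall, measured 160, 155, 249, 128, 103 and 99.6 FPKM. Liver 3 was 1.56-fold above the next highest, and the ratio of highest to lowest was 2.50 with it and 1.61 without it.

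Apoa4, a protein of chylomicrons and high density lipoprotein that in mice is made mainly by the gut and can be raised in fatty or fasted liver, had the widest spread. It measured 14.7, 14.6, 211, 9.32, 7.24 and 7.33 FPKM. The value in liver 3 rested on 6364 reads and those of the others on 204 to 490. The exact 95% Poisson interval, which covers counting error only, was 206 to 216 FPKM in liver 3 and 13.4 to 16.1 FPKM in liver 1, the next highest. Liver 3 was thus 14.3-fold above the next highest liver, and the ratio of highest to lowest fell from 29.1 to 2.03 without it. The remaining livers lay between 7.24 and 14.7 FPKM.

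**Figure D3:**
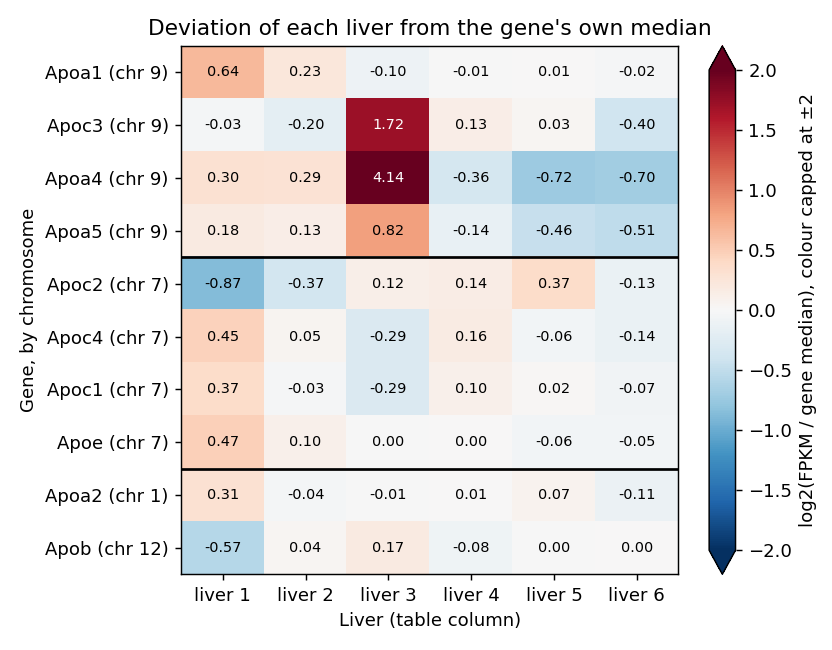
Log2 of FPKM over the gene's own median in the 6 livers, by gene and liver, with genes grouped by chromosome and the colour capped at 2 in either direction. Liver 3 is at 4.14 for Apoa4, 1.72 for Apoc3 and 0.82 for Apoa5, and at -0.10 for Apoa1 in the same cluster.

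Proportions within a liver, which do not depend on how the columns were scaled, showed the same split inside the cluster. Per 100 FPKM of Apoa1 there were 2.46 FPKM of Apoa4 in liver 3 and 0.0783 to 0.135 FPKM in the others. Apoc3 stood at 16.9 FPKM per 100 FPKM of Apoa1 in liver 3 and at 3.02 to 5.30 elsewhere. Apoa5 stood at 2.90 in liver 3 and at 1.10 to 1.44 elsewhere. Apoa1 itself was lowest in liver 3 on the deposited scale and under all 3 rescalings tried, and Apoa4, Apoc3 and Apoa5 were highest there under all of them.

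**Figure D4:**
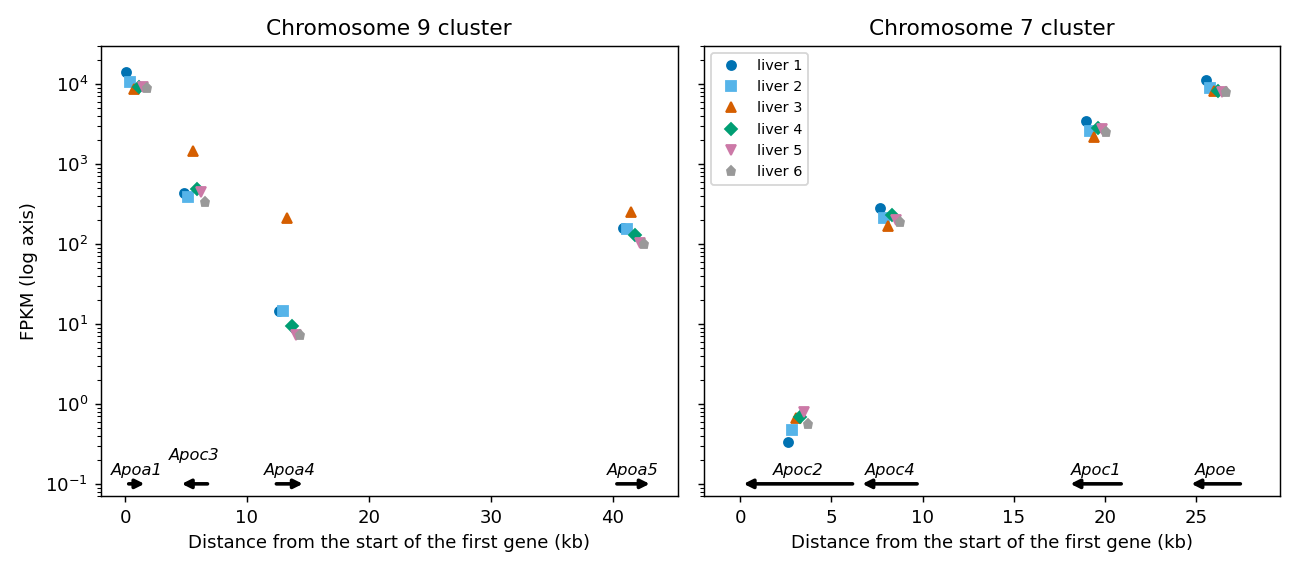
FPKM (log axis) in each of 6 livers for the genes of both clusters, placed by distance in kb from the start of the first gene, with arrows for extent and strand. On chromosome 9 liver 3 is above the other livers for Apoc3, Apoa4 and Apoa5 but not for Apoa1, and on chromosome 7 it is lowest for Apoc4 and Apoc1.

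Other genes were extreme in liver 3 as well. Among the 11082 genes with a median of at least 1 FPKM, 22.5% had their highest value in liver 3 and 26.3% their lowest, and 27.0% had their highest in liver 1. Of the 9 members above that level, 4 were highest in liver 3 and 5 in liver 1. The hepatocyte identity markers were highest in liver 1 for 8 of 10 genes and summed to 92001 FPKM there and to 79222 to 85276 FPKM in the others. For the ratio of liver 3 to the median of the other livers, 1 of the 11082 genes exceeded Apoa4, and 41 genes (0.37%) were above 3-fold, Apoa4 and Apoc3 among them. For the ratio of highest to lowest liver, whichever these were, 40 genes exceeded Apoa4. Erythroid markers (7 genes) summed to 1392 FPKM in liver 3, below 1425 FPKM in liver 4 and above 376 to 1010 FPKM in the others. Of these markers 3 were highest in liver 3, as were all 8 macrophage markers. The part of erythroid cells and macrophages in the values of liver 3 was not tested. Of 9 enterocyte markers, Sis, Alpi, Cdx1 and Cdx2 were listed at 0 in every liver, and Fabp2, the intestinal fatty acid-binding protein, was lowest in liver 3 with 41.6 FPKM against 85.9 to 108 FPKM. The remaining 4 were at most 0.38 FPKM in any liver. Of 7 exocrine pancreas markers, Prss2 and Pnlip were listed at 0 everywhere, and the list summed to at most 7.25 FPKM, most of it Cela1. Cela2a was highest in liver 3 with 1.57 FPKM against 0.17 to 0.51 FPKM, and Cpa1 was above 0 in liver 3 alone, at 0.14 FPKM. No adipocyte marker of 5 exceeded 0.14 FPKM.

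Apoc2, the cofactor that lipoprotein lipase requires, is known as a secreted liver protein, and it was the only member with a median below 1 FPKM. It was listed at 0.335, 0.474, 0.666, 0.678, 0.794 and 0.562 FPKM, from 5, 7, 9, 10, 11 and 7 reads. The exact 95% Poisson intervals of all 6 livers overlapped, from 0.109 to 0.782 FPKM for liver 1 and from 0.396 to 1.42 FPKM for liver 5. In GENCODE M21, 646 of the 813 exon bases of Apoc2 (79.5%) also belong to exons of Gm44805 on the same strand. That gene (chr7:19671584-19681423) starts in the first exon of Apoc4 and runs through Apoc2, and all of its 765 exon bases are shared with one or the other. Gm44805 was itself listed at 0 in 4 livers and had 4 reads in liver 2 and 1 read in liver 3. The exact 95% Poisson interval for 0 reads reached 0.315 FPKM in liver 6. Of 245 protein-coding genes with at least 80% of exon bases shared on the same strand, 243 (99.2%) had a median under 1 FPKM. The share was 52.8% among the 21706 with less sharing, which include Apoc2 at 79.5%. Reads in the shared exons cannot be assigned to 1 gene by position, and how the counting treated them is not given in the sources used here. The listed value is uncertain as a level of Apoc2 transcript for that reason, and the part of the overlap in the low value was not tested.

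By listed gene length, the order of the medians was Apoa1, Apoe, Apoa2, Apoc1, Apob, Apoc3, Apoc4, Apoa5, Apoa4 and Apoc2. The steps from Apoa1 to Apoe and from Apoe to Apoa2 were small, 1.12-fold and 1.22-fold, and the ranges overlapped, but the first gene was above the second in 6 of 6 livers for each pair. Apoa2 lay 2.53-fold above Apoc1 and Apoc1 6.01-fold above Apob, with no overlap. Apob and Apoc3 were level, with medians of 443 and 442 FPKM and Apob higher in 2 of 6 livers. Apoc4 was above Apoa5 in 5 of 6 livers, the exception being liver 3. Apoa5 was above Apoa4 in 6 of 6 livers, although the range of Apoa4 reached that of Apoa5 through liver 3.

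This order depends on the length that each gene is given. The listed length counts every annotated exon, including a retained intron in Apoc4, which has 2537 listed bases and 538 in its principal transcript. With reads taken per length of the longest APPRIS principal transcript, Apoe (median 12449) passed Apoa1 (10948) in 6 of 6 livers. Apoc4 came to place 5 with a median of 966, ahead of Apoc3 (852) and Apob (443). In liver 3 the order of Apoc4 and Apoc3 was reversed, at 787 and 2799. All reads of Apoc4, including any in the retained intron, were divided by 538 bases, which can overstate its level. The places of Apoa2, Apoc1, Apoc3, Apoa5, Apoa4 and Apoc2 were the same on both scales.

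The median over the 10 genes of the ratio of highest to lowest liver was 1.68, beside 1.46 over the 11082 genes with a median of at least 1 FPKM, and 8 of the 10 members were above that median. Both members below it, Apoe and Apoa2, are among the most abundant. Without liver 1 the median was 1.34 over the members and 1.34 over all those genes, with 5 members above it. Without liver 3 the median was 1.52 over the members and 1.37 over all those genes, with 8 members above it. Each of these counts includes Apoc2, whose median was below the 1 FPKM minimum of the background. Its ratio of 2.37 came from 11 reads in liver 5 against 5 in liver 1, with overlapping Poisson intervals. Over the 9 members that met the minimum, the median ratio in all 6 livers was 1.67.

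**Figure D5:**
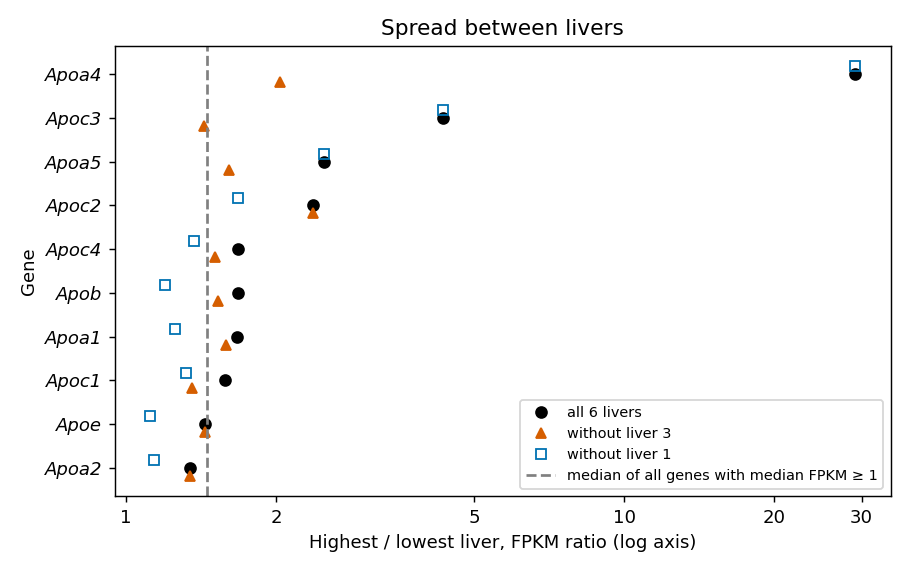
Ratio of the highest to the lowest of the 6 livers (log axis) for each gene, for all livers (filled circles), without liver 3 (triangles) and without liver 1 (open squares), beside the median ratio of 1.46 over all genes of at least 1 FPKM (dashed). The dashed line is over all 6 livers and is to be set against the filled circles only. That median was 1.37 without liver 3 and 1.34 without liver 1. Apoa4 moves from 29.1 to 2.03 and Apoc3 from 4.32 to 1.43 without liver 3, whereas Apoa1, Apoe and Apob narrow without liver 1.

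The genes most like Apoa4 and Apoc3 in pattern were sought among 3331 other genes with a median of at least 10 FPKM and no value of 0, by the root mean square difference of log2 FPKM centred on each gene's median over the 6 livers. Nearest to Apoa4 was Igfbp1, a hepatic binding protein of insulin-like growth factors, at a distance of 0.75, with 1152 FPKM in liver 3 and 123 to 358 FPKM in the others. Serpina3k (0.99), Cyp39a1 (1.06), Marco (1.11) and Cyp4a10 (1.17) followed. Among the nearest to Apoc3 were Bnip3 (0.21), Gpi1 (0.21), Cyp39a1 (0.26) and Cyp4a14 (0.27).

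The other genes of lipoprotein metabolism were read from fixed lists, each beside its own spread. Among 12 further apolipoproteins and lipoprotein-bound proteins, Apoh was highest (1165 to 1530 FPKM), followed by Apof (1023 to 1306 FPKM), and Apod was listed at 0 in all 6 livers. Apon, at 107 FPKM in liver 3 and 59.3 to 78.3 FPKM elsewhere, and Saa1, an acute phase protein of high density lipoprotein, at 2.18 to 6.12 FPKM, were also highest in liver 3. The median ratio of highest to lowest over the 9 of this list with a median of at least 1 FPKM was 1.28. Of these 9, 2 (22.2%) were highest in liver 3, beside 22.5% of all genes above that level. A further 4 were highest in liver 1, and 3 of the 9 were lowest in liver 3.

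Over 12 assembly and secretion genes the median ratio was 1.34, with P4hb, the disulfide isomerase that pairs with Mttp, highest at 426 to 629 FPKM and Dgat1, an enzyme of triglyceride synthesis, lowest at 4.64 to 6.10 FPKM. A1cf, the partner of Apobec1, spread most, from 8.82 FPKM in liver 1 to 23.8 FPKM in liver 6. Over the 10 lipase and remodelling genes with a median of at least 1 FPKM the median ratio was 2.09, and 1.41 without liver 3. Lcat was highest of this list at 275 to 345 FPKM, and Lipg, at 0.19 to 0.40 FPKM, lowest. Lipc, the hepatic lipase, was lowest in liver 3 at 58.4 FPKM, against 90.7 to 112 FPKM in the others. Angptl4, an inhibitor of lipoprotein lipase, was highest in liver 3 with 19.97 FPKM and ranged from 5.05 to 13.9 FPKM in the others.

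Of the receptor and efflux genes, Lrp1 stood at 39.4 to 65.2 FPKM and was lowest in liver 1. Sdc1, a heparan sulfate proteoglycan that captures remnants, was the highest of the 12 at 109 to 173 FPKM, and Lrp8 the lowest at 0.02 to 0.08 FPKM. Vldlr spread most, from 0.56 to 2.66 FPKM.

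Among 17 transcription factor genes, Cebpa was highest, with 236 FPKM in liver 3 and 141 to 176 FPKM in the others. Hnf4a, a nuclear receptor that binds many apolipoprotein promoters, ranged from 71.9 to 94.3 FPKM and was lowest in liver 1. Srebf1, a driver of fatty acid synthesis genes, was lowest in liver 3 with 44.7 FPKM against 69.8 to 84.8 FPKM. Ppara, the fatty acid sensor, spread most, with 16.8 FPKM in liver 1 and 38.2 to 44.4 FPKM in the others. Ppargc1b was the lowest of the list, at 0.51 to 1.25 FPKM. Creb3l3, a liver factor known to drive Apoa4, ranged from 69.1 to 87.3 FPKM and was lowest in liver 3.

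Genes of PPAR alpha and fasting did not share 1 pattern. Cyp4a14 (91.9 to 227 FPKM) and Cyp4a10 (11.1 to 46.7 FPKM) were highest in liver 3. Fabp1, the liver fatty acid-binding protein and the highest of the 13, was lowest there with 1237 FPKM against 1648 to 2577 FPKM. Plin4, a lipid droplet protein, was lowest of the list at 0.08 to 0.17 FPKM. Of 5 fetal liver markers, H19 was highest at 6558 to 7853 FPKM and Dlk1 lowest at 0.63 to 0.90 FPKM. Afp was highest in liver 3 with 957 FPKM and ranged from 245 to 505 FPKM in the others. Among the hepatocyte markers Fgb, a fibrinogen chain, was at 760 to 970 FPKM, and Trf, which encodes transferrin, spread most, with 1264 FPKM in liver 1 and 504 to 634 FPKM in the others.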

How the data were processed

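Whole-liver RNA was sequenced in 6 livers of 12-day-old mice. Per the submitters' processing notes, the tools were featureCounts (1.5.0-p3), HISAT2 (2.0.5) and DESeq2 (1.20.0), and the build was mm10; the role of each is not given. The authors deposited 1 table of FPKM values per gene, with the listed gene length and other annotation per the file headers. All 6 value columns were taken as the 6 livers of the series, although their names match no sample. This assignment is a judgement from the number of columns, and any difference between genotypes is part of the spread. Reads were recovered as FPKM times listed length over the smallest such product in the column. The denominators these steps imply differ somewhat from the recovered sums, and how the authors set them is not given in the sources used here.

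Values were described by level, rank and ratio of highest to lowest liver, with no test between groups, since none could be formed. Dixon's gap was used to mark livers far from the rest. No filter was applied to the members, and 9 of 10 had a median of at least 1 FPKM, the minimum for the background genes. The members, gene lists and rules were chosen with earlier results of these data known. Named list genes were those highest, lowest or widest in spread, and others named were chosen after their values were seen. The attention to livers 1 and 3, the length classes, the exon overlap, the proportions within a liver, the motifs and the promoters shown were also chosen after seeing the data. Exons were from GENCODE M21 and upstream sequences from RefSeq (GRCm38.p6). Alternatives were other denominators, 3 rescalings, other background minimums, leaving out each liver and, chosen after seeing the data, principal transcript lengths, a limit of 200 bases, a background over the same livers as the members, and gaps under each rescaling. A few list genes and 1 gene of the pattern search are not reported here. The scripts (Python 3.11.15, numpy 2.4.6, pandas 2.3.3) were tested on simulated data. Precision is limited by 6 livers more than by depth, except for Apoc2.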

Additional observations from a re-analysis of the deposited data

Results flagged for a closer look

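For 3 of the 10 genes and for the sum of the 10, 1 of the 6 livers lay far from the rest. The gap to its nearest neighbour, as a share of the whole range, passed Dixon's 95% limit for 6 values. Chance alone passes it in about 1 of 20 groups of values from 1 normal population, whereas these livers are of mixed and unknown genotype. The share of all genes that pass was not computed, so the count is no trait of the members. Of the 11082 genes with a median of at least 1 FPKM, 27.0% were highest in liver 1 and 22.5% in liver 3. Apoa4 had a gap of 0.963 and Apoc3 of 0.869, both with liver 3 at the high end. Apoe had a gap of 0.734 and the summed FPKM of the members 0.733, both with liver 1 at the high end of the deposited scale. Both hold on that scale and under 2 of the 3 rescalings. The other rescaling sets the columns to equal FPKM sums, of which the row Gm23935 made up 22.2% in liver 1. On that scale liver 2 was highest for Apoe and for the members' sum. Their gaps were 0.0953 and 0.0956, within the limit, whereas Apoa4 (0.962) and Apoc3 (0.856) still passed it with liver 3 highest. The cause was not tested.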

How the results depend on the processing

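The members' median share of summed FPKM was 6.59% over all genes, 7.49% over protein-coding genes, 7.29% without mitochondrially encoded genes, 7.46% without Alb and 7.13% without genes listed under 200 bases (each is higher by construction, with fewer genes below the line), and 6.61% without erythroid markers. Leaving out each liver gave 6.50% to 6.68%. The median ratio of highest to lowest liver was 1.68, was 1.68 to 1.77 under the 3 rescalings, and 1.34 to 1.68 when each liver was left out, lowest without liver 1. With other backgrounds, 7 to 9 members lay above the median ratio, against 8, with Apoc2 counted each time. The order of the 10 genes kept 8 to 10 places when a liver was left out, and 6 places per length of the principal transcript. The steady median under equal FPKM sums hides changes in opposite directions: the ratio moved from 1.67 to 1.31 for Apoa1, 1.44 to 1.16 for Apoe, 1.34 to 1.13 for Apoa2, 1.58 to 1.35 for Apoc1 and 1.68 to 1.41 for Apoc4, and from 1.67 to 2.13 for Apob and 2.37 to 2.98 for Apoc2. For Apoa4, leaving out liver 3 moved the ratio from 29.1 to 2.03. The pattern search gave the same 5 genes under median-ratio scaling. No paired analysis was possible because no column is tied to a sample, so no replicates can be matched.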
